A study of Mus musculus with 4 samples.

Results

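The 4 tissue inhibitors of metalloproteinases, Timp1 to Timp4, and 6 secreted proteases of the ADAMTS family that cut aggrecan, versican or related matrix proteins were examined in mouse tendon. These 10 genes were listed by symbol and are 10 of the 22180 genes with a probe set of exactly 1 symbol. They had 11 such probe sets, and only Adamts8 had more than 1. For each gene the probe set with the highest mean over the 4 arrays was used, and no measured difference entered the choice of probe set. The genes were chosen with earlier results of these data known. The arrays came from females (n = 2) and males (n = 2). All were untreated wild-type C57Bl/6 mice, an inbred laboratory strain, aged 4 months. The Achilles and plantaris tendons of an animal were pooled before RNA extraction. Whether the arrays of a sex stand for different animals is not stated in the labels, so any p-value here speaks of the scatter between these arrays, part or all of which may be technical. Values are log2 RMA values, so that 1 unit is a doubling of the signal. Differences are female minus male.

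TIMPs are small secreted proteins that wedge into the zinc-holding active site of metalloproteinases and block it. ADAMTS proteases are zinc enzymes whose thrombospondin repeats and spacer hold them to the matrix around the cell. In cartilage and tendon the aggrecanase-type members cut the large proteoglycans that hold water between collagen fibrils, and Timp3 is known as their main natural inhibitor.

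The series measures resting tendon of each sex, so the level of each gene on each array is described before any comparison. Probe sets differ in how strongly they bind, so a higher value of one probe set than of another is not a higher amount of RNA. Each value was therefore read against the median of all rows of its array, which lay between 2.27 and 2.30, near where signal is not told from background. All 4 TIMPs lay above the highest of these medians on all 4 arrays, while 3 of the 6 proteases did. Over all probe sets tested, 46.7% did. The 3 proteases above it were Adamts1, Adamts5 and Adamts12, and the 3 others were Adamts4, Adamts8 and Adamts15.

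The tissue label was checked against marker genes. Of 10 tenocyte markers, 9 lay above the highest array median on all arrays. They included the lineage factor Scx, at 3.20 and 3.51 in females and 3.58 and 3.18 in males, and Tnmd, a membrane protein of mature tendon cells, at 4.42 and 4.39 in females and 5.06 and 4.60 in males. Mkx was the exception, at 2.26 in female 1. Although the cell type label reads tenocytes, whole tendon was taken, and all 10 fast muscle markers were also above the highest median on all arrays. Their list median was 9.89 and 9.13 in females and 10.10 and 9.89 in males. In such bulk samples fewer cells of a type and less RNA per cell cannot be told apart.

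A promoter was in the RefSeq table (GRCm38.p6) for 6 of the 10 members. Those of 4 are shown because they represent both roles and are the 4 of these 6 genes with the widest range over the arrays, from 0.87 for Timp2 to 2.85 for Timp1. Adamts5, with the second widest range of all members, is not among the 6. The 250 bases before the annotated start are given 5′ to 3′ on the gene's strand, with GC boxes (GGGCGG, either strand), the short element bound by Sp1-type factors, in capitals.
Timp1 (chrX:20869916-20870165, plus strand): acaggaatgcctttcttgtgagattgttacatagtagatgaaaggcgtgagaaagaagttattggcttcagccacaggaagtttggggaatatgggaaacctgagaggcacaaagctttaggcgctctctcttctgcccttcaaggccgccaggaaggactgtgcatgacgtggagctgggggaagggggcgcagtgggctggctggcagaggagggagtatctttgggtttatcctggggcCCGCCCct
Timp2 (chr11:118355412-118355661, minus strand): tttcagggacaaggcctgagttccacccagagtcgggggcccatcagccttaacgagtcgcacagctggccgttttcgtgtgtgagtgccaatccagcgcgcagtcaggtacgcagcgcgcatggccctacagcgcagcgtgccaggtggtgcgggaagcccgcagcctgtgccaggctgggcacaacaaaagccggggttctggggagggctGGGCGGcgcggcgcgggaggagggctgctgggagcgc
Timp3 (chr10:86300162-86300411, plus strand): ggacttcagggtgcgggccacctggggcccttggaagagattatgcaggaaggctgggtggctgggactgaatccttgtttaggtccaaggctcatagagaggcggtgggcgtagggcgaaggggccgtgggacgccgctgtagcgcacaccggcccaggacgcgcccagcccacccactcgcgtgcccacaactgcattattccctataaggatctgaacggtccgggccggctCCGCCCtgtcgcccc
Adamts1 (chr16:85803114-85803363, minus strand): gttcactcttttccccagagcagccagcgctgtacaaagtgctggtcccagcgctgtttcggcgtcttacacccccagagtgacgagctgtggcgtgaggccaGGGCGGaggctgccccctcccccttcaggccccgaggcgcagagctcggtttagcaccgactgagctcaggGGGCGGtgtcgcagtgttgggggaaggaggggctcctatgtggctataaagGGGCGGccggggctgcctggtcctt
Timp1, Timp2 and Timp3 each held 1 GC box, Adamts1 held 3, and Timp4 and Adamts12 held 0. Among 27025 mouse promoters of this length, 32.9% held at least 1. The GC content was 54.4% for Timp1, 68.0% for Timp2, 65.6% for Timp3, 53.6% for Timp4, 65.6% for Adamts1 and 63.2% for Adamts12, against a median of 52.0% over all promoters. CpG pairs numbered 21 in the Timp2 window and 18 in that of Timp3, but 6 in that of Timp1 and 2 in that of Timp4, against a median of 6. A TATA box (TATAAA, either strand) was found in Adamts1 alone of the 6, 32 bases before the start and not overlapping the GC box that begins at 25 bases. It was in 13.0% of all promoters. The AP-1 element (TGANTCA, which reads alike on either strand) and the ETS element (CCGGAA, either strand) were in 0 of the 6 windows, against 6.87% and 12.2% of all promoters. These matches describe letters and say nothing of binding.

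Timp3, which stays bound to the matrix and inhibits ADAMTS proteases and the shedding enzyme Adam17, was at 7.94 and 9.04 in females 1 and 2, and at 8.01 and 7.83 in males 1 and 2. Its probe set ranked at percentile 98.3 and 99.3 of all probe sets in females, and at 98.5 and 98.3 in males. Female 2 was the high array, and the other 3 lay between 7.83 and 8.01, so the sexes overlapped. The difference was 0.57 (SE 0.40, 95% interval -0.50 to 1.65, limma adjusted p = 0.969).

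Timp2, which both inhibits metalloproteinases and serves Mmp14 in the activation of Mmp2, was at 7.02 and 7.87 in females and at 7.26 and 6.99 in males. Female 2 again stood highest, and female 1 and male 2 were lowest. The difference was 0.32 (SE 0.33, 95% interval -0.56 to 1.20, limma adjusted p = 0.971). Timp2 and Timp3 kept nearly the same distance on each array: Timp2 less Timp3 was -0.92 and -1.18 in females and -0.75 and -0.83 in males.

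Timp1, the inhibitor that cytokines and growth factors are known to induce, varied most of the 4. It was at 3.82 and 5.42 in females and at 6.68 and 4.80 in males. Male 1 was high and female 1 low, a range of 2.85, and female 2 lay above male 2, so the sexes overlapped. The difference was -1.11 (SE 0.84), and its 95% interval of -3.37 to 1.15 covers 0 (limma adjusted p = 0.969). It was -0.17 without male 1 and -0.31 without female 1, so its size rested on those arrays. Relative to Timp3, Timp1 was at -4.12 and -3.62 in females and at -1.33 and -3.03 in males.

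Timp4, known for its expression in heart, muscle and fat, varied least of the TIMPs. It was at 5.73 and 5.75 in females and at 5.80 and 5.27 in males. Only male 2 stood apart, on the low side, and the difference was 0.21 (SE 0.23, 95% interval -0.40 to 0.82).

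**Figure D1:**
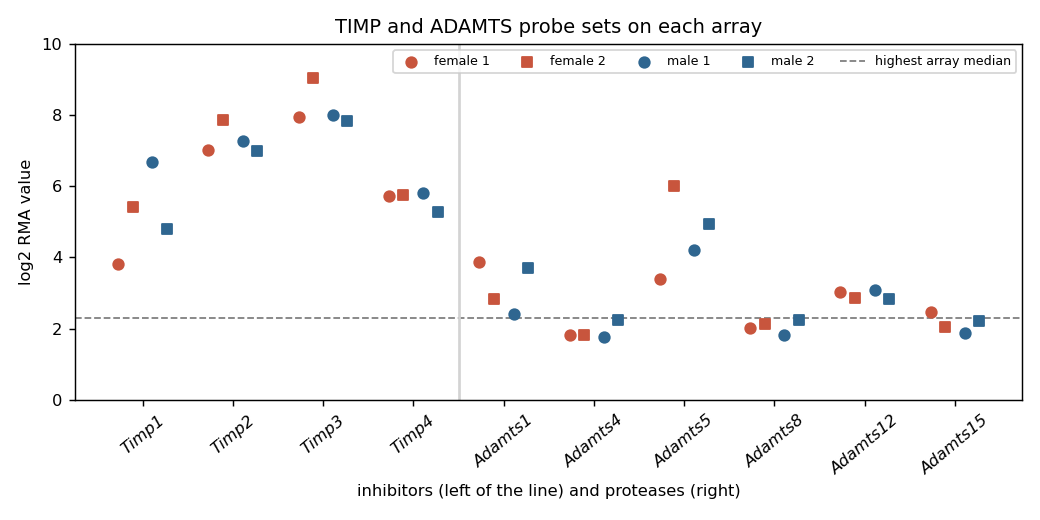
Log2 RMA value of each gene (vertical axis) on each array, with females in red and males in blue; circles are replicate 1, squares replicate 2, and the dashed line is the highest array median, 2.30. The TIMPs lie above the line on all arrays, as do Adamts1, Adamts5 and Adamts12, and the wide spreads are those of Timp1, Adamts1 and Adamts5.

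Of the TIMP genes, 3 sit inside synapsin genes in the annotation. Timp1 on the X chromosome lies within Syn1, Timp3 on chromosome 10 within Syn3 and Timp4 on chromosome 6 within Syn2, while Timp2 on chromosome 11 lies within no other protein-coding gene. Synapsins coat vesicles of nerve endings, and the values of their probe sets are given beside those of the TIMPs they enclose. Syn1 was at 2.78 and 2.93 in females and 2.60 and 2.80 in males, Syn2 between 1.88 and 2.41, and Syn3 between 1.67 and 2.08. Whether any signal was shared was not tested.

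Adamts5, the main aggrecanase of mouse cartilage, was the most variable protease. It was at 3.40 and 6.00 in females and at 4.21 and 4.94 in males. The lowest and the highest array were both female, a range of 2.59, and both males lay between them. The difference was 0.13 (SE 0.92), with a 95% interval of -2.33 to 2.58 that allows a wide difference in either direction (limma adjusted p = 0.999). It was -1.17 without female 2 and 1.42 without female 1.

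Adamts1, which cuts versican and is known for its part in ovulation, was at 3.86 and 2.84 in females and at 2.42 and 3.69 in males. Female 1 and male 2 were high, and female 2 and male 1 were low. The value in male 1 was close to the highest array median of 2.30. The difference was 0.29 (SE 0.57, 95% interval -1.23 to 1.81, limma adjusted p = 0.983). Adamts1 and Adamts5 are adjacent protein-coding genes on chromosome 16, yet they did not follow each other: Adamts1 less Adamts5 was 0.46 and -3.16 in females and -1.79 and -1.25 in males.

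Adamts12, a protease that cuts the matrix protein Comp, was steady. It was at 3.03 and 2.86 in females and 3.07 and 2.83 in males, and the difference was -0.0039 (SE 0.17, 95% interval -0.46 to 0.46).

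The remaining proteases gave values near or below the array medians. Adamts4, an aggrecanase that inflammatory cytokines induce, was at 1.83 in each female array and at 1.76 and 2.25 in males, below its own array's median on 4 of 4 arrays. Adamts8 was at 2.03 and 2.14 in females and 1.82 and 2.25 in males, also below the median on 4 of 4, and its other probe set lay between 1.58 and 1.95. Adamts15, its neighbour on chromosome 9, was at 2.47 and 2.03 in females and 1.87 and 2.20 in males, and passed its array's median in female 1. The means of Adamts4, Adamts8 and Adamts15 lay below every array median in females and in males alike, and their differences are not interpreted. Low signal on these probe sets does not show that the genes were silent.

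Of the 10 members, 0 passed limma's test at an adjusted p under 0.05, and 0 had an unadjusted p under 0.05. Over all 23521 probe sets tested 0 (0%) passed, and 1056 (4.49%) had an unadjusted p under 0.05. The adjusted p of the members ran from 0.969 to 1. Female and male arrays overlapped for all 10 members, whereas they did not overlap for 33.3% of all probe sets. The mean was higher in females for 7 members, against 48.8% of all probe sets. These 7 include Adamts8 and Adamts15, whose differences are not interpreted. The median difference was 0.26 for the TIMPs and 0.09 for the proteases, beside -0.01 over all probe sets. With only the proteases above the highest median on all arrays, the protease median was 0.13. An exact two-sided permutation test of a single value cannot go below p = 0.333 with 2 arrays on each side.

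**Figure D2:**
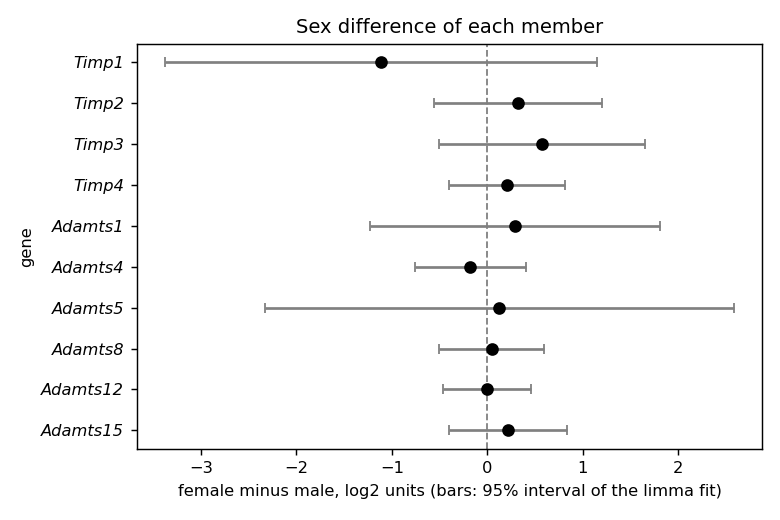
Female minus male difference of each gene in log2 units (horizontal axis), with its 95% interval from the limma fit as bars. All 10 intervals cover 0; those of Timp1 and Adamts5 are the widest and that of Adamts12 is the narrowest.

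The spread between arrays was the wider feature. The range over the 4 arrays exceeded 1 log2 unit for 4 of the 10 members, namely Timp1, Timp3, Adamts1 and Adamts5, against 13.1% of all probe sets tested. Among probe sets above the highest median on all arrays, whose ranges are less compressed by background, 22.7% did so. Of the members, 7 met that condition, the 4 named genes among them. In each of these 4 genes the sexes overlapped.

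Inhibitors and proteases were then compared within arrays. For probe sets well above background, the binding strength of each probe set adds about the same amount on every array. The TIMP mean less the ADAMTS mean of the same array keeps these amounts, but they cancel when arrays are compared. This quantity can therefore be compared between arrays, though its own size cannot be read as a ratio of RNA. Of the 6 proteases, 3 lay near background, where this holds less well. The quantity is therefore also given against Adamts1, Adamts5 and Adamts12 alone, a choice made after the data were seen. Of these, Adamts1 was at 2.42 in male 1, itself close to the highest array median of 2.30. The TIMP mean was 6.13 and 7.02 in females and 6.94 and 6.22 in males. The ADAMTS mean was 2.77 and 2.95 in females and 2.53 and 3.03 in males. The TIMP mean less the ADAMTS mean was therefore 3.36 and 4.07 in females, and 4.41 and 3.19 in males. Male 1 and female 2 were the high arrays and each sex had 1 high and 1 low array. The mean was 3.72 ± 0.51 in females and 3.80 ± 0.86 in males (SD, n = 2 each), a difference of -0.09 that is smaller than either SD. Against the 3 proteases above the highest median it was 2.70 and 3.12 in females and 3.70 and 2.40 in males. The mean was then 2.91 ± 0.30 in females and 3.05 ± 0.92 in males (SD, n = 2 each), and the difference of -0.14 was again smaller than either SD.

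**Figure D3:**
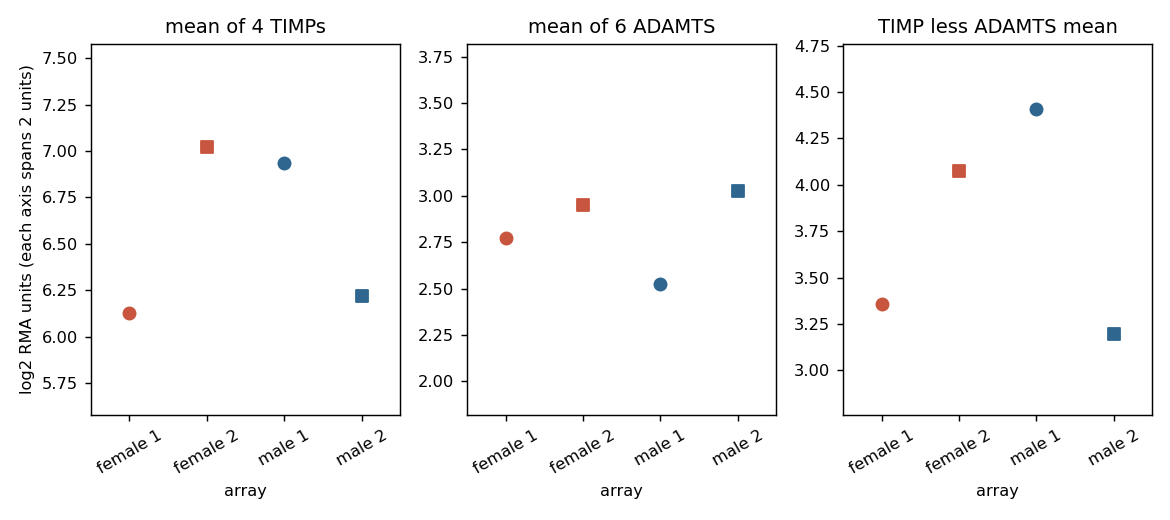
Mean log2 RMA value of the 4 TIMPs (left panel), mean of the 6 ADAMTS genes (middle) and the first less the second (right) on each array, females in red and males in blue, each vertical axis spanning the same number of log2 units. Female 2 and male 1 are high in the left and right panels, and the sexes overlap in all 3.

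Which genes made this quantity high differed between male 1 and female 2. In male 1 Timp1 stood 2.00 above and Adamts1 1.04 below the mean of the other arrays (a deviation of -1.04), while Timp3 was at -0.26. In female 2 Timp3 stood 1.12 and Timp2 0.78 above the mean of the other arrays, but Adamts5 stood 1.81 above it as well. For the pair of Timp3 and Adamts5, inhibitor less protease was 4.54 and 3.05 in females and 3.80 and 2.89 in males. For Timp1 and Adamts5 it was 0.42 and -0.57 in females and 2.47 and -0.14 in males. Timp3 less Adamts5 was thus highest in female 1, the array with the lowest Adamts5, while Timp1 less Adamts5 was highest in male 1.

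Markers of cell types moved with some of these values. The tenocyte list deviated from its gene means by a median of -0.35 and 0.34 in females and 0.20 and -0.17 in males. The ADAMTS substrate list, which shares 2 genes with it, deviated by -0.31 and 0.37 in females and 0.22 and -0.16 in males. Female 2 and male 1 were thus the high arrays for tendon genes as they were for the TIMP mean. The TIMP mean less the tenocyte marker mean was 0.20 and 0.31 in females and 0.53 and 0.14 in males, a range of 0.39, against 0.89 for the TIMP mean itself. For Adamts5 less the tenocyte marker mean the range was 1.82, and for Timp1 it was 2.38.

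Taken relative to the tenocyte marker mean, a scaling chosen after the data were seen, Timp3 was at 2.01 and 2.34 in females and 1.60 and 1.75 in males, and Timp2 at 1.09 and 1.16 in females and 0.85 and 0.91 in males. On that scale Timp1 was at -2.11 and -1.28 in females and 0.27 and -1.28 in males, with female 2 and male 2 nearly equal. Timp2 and Timp3 were thus higher and Timp1 lower in females. The sexes did not overlap for these 3 of the 10 members, against 8.44% of all probe sets. Without the scaling it was 0 members, against 33.3%. The mean taken off was lowest in female 1 (5.93) and highest in female 2 (6.71), which by itself makes steady probe sets overlap. The 3 members are therefore not read as an excess. For Timp1 the separation rests on -1.2843 in female 2 against -1.2839 in male 2. So scaled, 0 of the 10 members passed limma's test, with an adjusted p of 1.00 for each.

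Female 2 was the highest array for 3 of the 10 members, Adamts5, Timp2 and Timp3, close to its share of 24.9% over all probe sets. It also had the highest value of 10 of 11 macrophage markers. Their list median was 3.81 and 5.74 in females and 4.03 and 4.23 in males, and the log2 of their summed linear level was 8.83 and 10.15 in females and 9.20 and 8.94 in males. The MHC class II gene H2-Aa was at 2.95 and 6.10 in females and 2.25 and 2.94 in males. A further one, H2-Ab1, was at 5.93 and 8.19 in females and 7.72 and 5.38 in males, and so was high in male 1 as well. The same array had the lowest value of 8 of 10 fast muscle markers, with a median deviation of the list of -0.34. Actn3 and Mybpc2 had the widest range of this list. Actn3 was at 9.41 and 6.68 in females and 10.01 and 9.67 in males, and Mybpc2 at 8.62 and 6.20 in females and 9.72 and 9.02 in males. Myh1 and Myh2 did not follow: in female 2 they were at 8.93 and 9.34. In males Myh1 was at 8.86 and 8.78, and Myh2 at 9.01 and 9.24. Male 1, where Timp1 was highest and Adamts1 lowest, had the lowest value of 6 of 7 adipocyte markers and 6 of 7 endothelial markers. The adipocyte genes Cidec and Pparg were at 3.36 and 2.72 there, and between 3.65 and 5.75 on the other arrays. The endothelial genes Emcn and Flt1 were at 2.32 and 3.83 there, and between 4.70 and 5.87 on the other arrays. The slow muscle genes Myh7 and Tnni1 were also lowest in male 1, at 6.99 and 5.66. Of the 10 slow and shared muscle markers 6 were lowest in male 1, but 4 were lowest in female 2, and 2 were highest in male 1. The part of these cell types in the values of Timp1, Timp2, Timp3, Adamts1 and Adamts5 was not tested.

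Markers of the remaining cell types gave less signal or no common order of arrays. Of 6 neutrophil and mast cell markers, 0 lay above the highest median on all arrays and 4 lay below the lowest median on every array. The neutrophil gene S100a8 was at 1.75 and 1.81 in females and 3.47 and 1.64 in males, but S100a9 was at 2.01 and 1.61 in females and 1.94 and 1.52 in males, and Ngp, Cpa3 and Cma1 lay between 1.32 and 1.97. The mast cell gene Mcpt4 was at 1.97 and 1.45 in females and 2.67 and 1.99 in males. Of 5 lymphocyte list members 0 lay above the highest median on all arrays. Cd3e, Cd3g, Cd79a and Ms4a1 had means below every array median, while Ptprc, a gene of all leukocytes, was at 2.20 and 3.75 in females and 2.57 and 2.26 in males. Cartilage markers lay above the highest median on all arrays in 4 of 7 genes, and Col9a1 and Matn3 had means below every array median.

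Among markers of tissues that border or pervade tendon, the synovial lining genes Htra4 and Clic5 were at 4.70 and 7.58 in female 1, 6.25 and 7.10 in female 2, 5.53 and 6.41 in male 1, and 4.53 and 7.97 in male 2. The pericyte gene Pdgfrb was at 3.73 and 3.30 in females and 3.72 and 4.39 in males, and Higd1b at 2.99 and 2.61 in females and 3.28 and 3.56 in males. These 2 genes were highest in male 2, where none of the 10 members but Adamts4 and Adamts8 had its highest value. Their list had no common order: of 6 pericyte and smooth muscle markers, 3 were highest in male 2, 2 in female 1 and 1 in female 2. The nerve-associated gene S100b was at 4.58 and 5.76 in females and 5.35 and 3.61 in males, and Mbp lay between 2.17 and 2.80. The keratinocyte genes Krt1 and Krt10 lay between 2.47 and 3.17, and Krt14 had a mean below every array median. Of the tenocyte markers, Fmod, a proteoglycan of collagen fibrils, was at 7.16 and 8.85 in females and 7.89 and 7.75 in males.

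**Figure D4:**
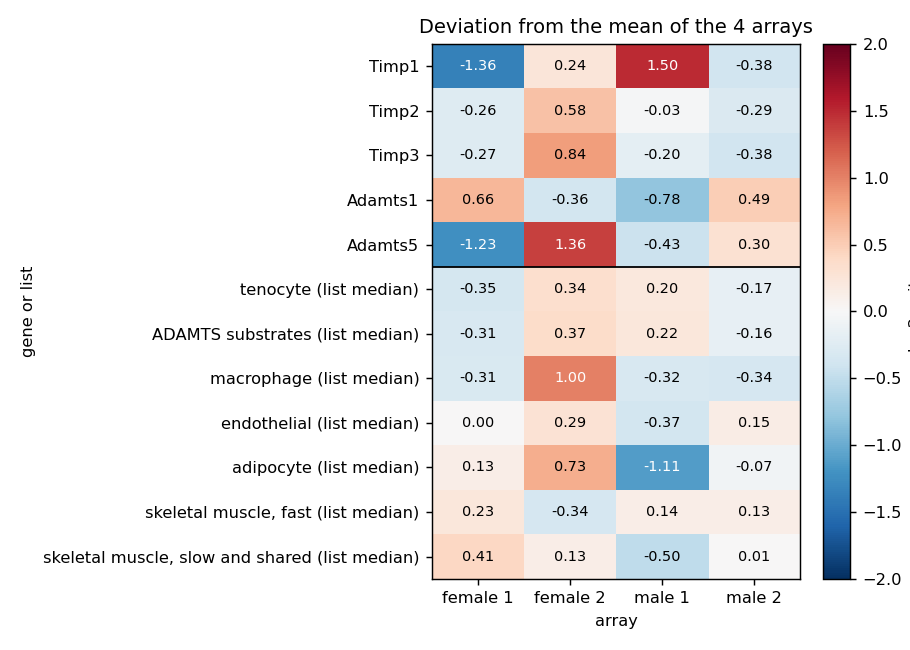
Deviation of each gene, or the median deviation of each list, from its own mean over the 4 arrays in log2 units (colour and printed number), by array. Adamts5 and the macrophage list are high in female 2, Timp1 is high and the adipocyte list low in male 1, and Adamts1 runs opposite to the tenocyte list on all 4 arrays.

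Other genes of the pathway were taken from 7 lists, and 0 of their members passed limma's test over all probe sets. Of the substrates, 6 of 11 were higher in females and 5 lower, with a median of 0.07. Versican (Vcan), the large proteoglycan that Adamts1 and Adamts5 cut, was at 5.48 and 7.11 in females and 7.10 and 5.52 in males. Aggrecan (Acan) was at 2.92 and 3.85 in females and 3.29 and 2.64 in males. Comp, cut by Adamts12, was at 6.90 and 8.75 in females and 8.01 and 6.64 in males, and Lum differed by 0.57 (SE 0.52). Vcan, Acan and Comp were each higher in female 2 and male 1 than in female 1 and male 2. The TIMP mean and the tenocyte marker mean had this order too, and Comp is itself a tenocyte marker. Adamts1 had the opposite order. Adamts5 did not, at 3.40 and 6.00 in females and 4.21 and 4.94 in males. A link between substrate and protease levels was not tested.

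Of 20 measured metalloproteinases that TIMPs bind, 13 were higher in females and 7 lower, with a median of 0.11, and 1 had an unadjusted p under 0.05. That was Mmp11, at 3.29 and 3.60 in females and 2.89 and 2.88 in males, a difference of 0.56 (SE 0.17, limma adjusted p = 0.969). Mmp2, the gelatinase that Timp2 helps to activate, was at 6.39 and 6.36 in females and 6.81 and 5.89 in males. Mmp14, its membrane-bound activator, was at 3.83 and 4.35 in females and 4.12 and 3.81 in males. Adam17, the shedding enzyme that Timp3 blocks, was at 3.29 and 3.67 in females and 2.51 and 3.40 in males. Adam19 differed by 0.35 (SE 0.20).

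Of 12 measured further ADAMTS proteases 5 were higher in females and 7 lower, with a median of -0.08. Adamts17, Adamts20 and Adamts7 differed by -0.31 (SE 0.17), 0.15 (SE 0.18) and 0.11 (SE 0.20). The ADAMTS-like proteins, which share the ancillary domains but have no protease domain, and papilin were higher in 5 of 7, with a median of 0.04. Adamtsl4 differed by 0.41 (SE 0.16), Adamtsl3 by 0.36 (SE 0.22) and Adamtsl2 by -0.15 (SE 0.18). Other inhibitors were higher in 4 of 6, with a median of 0.23. Reck, a membrane-anchored inhibitor of metalloproteinases, was at 5.16 and 4.85 in females and 4.45 and 4.74 in males. Its difference of 0.41 (SE 0.20) did not pass the test, and Cst3 and Pzp differed by 0.32 (SE 0.24) and -0.24 (SE 0.16).

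Genes of clearance, anchoring and activation were higher in 7 of 9, with a median of 0.15. Lrp1, the endocytic receptor that removes Adamts5 and Timp3 from the matrix, was at 5.93 and 7.04 in females and 6.47 and 6.06 in males, highest in female 2 as both were. Thbs1 was at 3.55 and 5.27 in females and 4.52 and 2.79 in males. Furin, which removes the propeptide of ADAMTS proteases, was at 4.10 and 4.45 in females and 4.14 and 3.96 in males. Sdc1 differed by -1.47 (SE 0.32, limma adjusted p = 0.969) and was the member of this list with an unadjusted p under 0.05.

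Known inducers and regulators were higher in 4 of 10 and lower in 6, with a median of -0.09. The cytokine genes Il1a, Il1b, Il6 and Osm, known to raise aggrecanases in joint tissue, lay below the lowest array median on all arrays. Tnf was at 2.95 and 3.25 in females and 2.73 and 2.55 in males. Fos and Egr1, with differences of -1.36 (SE 0.14) and -1.58 (SE 0.43), were the members with an unadjusted p under 0.05, and limma's adjusted p was 0.969 for each. Fos was at 3.27 and 3.16 in females and 4.58 in each male array.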

How the data were processed

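Gene expression in Achilles and plantaris tendon of 2 female and 2 male samples was measured on a Mouse Gene ST 2.1 array strip. Per the labels' protocols, 12.5 ng of total RNA went into cDNA synthesis, and biotin was put on 3.75 ug of the product. The values are log2 expression values deposited by the authors; oligo and RMA are named in the submitters' processing notes, while their versions, the summary level and the build are not given in the sources used here. That the scale is log2 rests on RMA and on the span of the values, 0.517 to 11.933.

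No further normalization was applied. Of 41345 rows, 23521 had exactly 1 gene symbol in GEO's platform annotation and were tested, 1814 had several and 16010 none. A linear model with sex as its term was fitted with limma 3.58.1 in R 4.3.3 (lmFit, eBayes), with Benjamini-Hochberg adjustment over all 23521 and a threshold of 0.05. The procedure was tested on simulated data. Precision is limited by how few arrays there were: a difference had a median SE of 0.19, and its 95% interval typically reached 0.50 to either side (median). Lists are described by counts and medians. The rule for named genes took all members, and of each other pathway list the up to 3 genes of widest difference whose means in both sexes lay above the highest array median; further genes are named for their role and were chosen after their values were seen. Of each marker list it took the 2 genes of widest range and those whose mean lay below every array median. The members and lists were chosen with earlier results of these data known. Alternatives were a replicate block, quantile normalization once more, centring on array medians, a trended and robust prior, a filter on dim probe sets, all rows, averaging the probe sets of each gene, an adjusted p under 0.1 and leaving out each array. Same-numbered arrays did not deviate together (r = -0.06 across probe sets, which are not independent replicates), so the numbers were not taken as pairs. Python 3.11.15 and matplotlib 3.10.9 were used for the plots.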

Additional observations from a re-analysis of the deposited data

How the results depend on the processing

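With 2 arrays a sex, the direction of most member differences depended on single arrays, and none of them passed the test under any alternative run. Over all probe sets 0 were called under each alternative but 1: with the tenocyte marker mean taken off each array, a scaling added after seeing the data, 17 were called, none of them a member. Leaving out each array in turn, the median difference was between -0.041 and 0.48 for the TIMPs and between -0.20 and 0.32 for the ADAMTS members, and that of the TIMP mean less the ADAMTS mean between -0.69 and 0.52. The last was -0.09, and -0.14 with only the ADAMTS members above the highest array median, a choice added after seeing the data. The TIMP median turned without female 2; the ADAMTS median and the TIMP less ADAMTS difference turned without female 1 and without male 1. Single genes ran from -0.34 to 0.93 for Adamts1, -0.42 to 0.067 for Adamts4, -1.17 to 1.42 for Adamts5, -0.17 to 0.26 for Adamts8, -0.12 to 0.12 for Adamts12, -0.0035 to 0.44 for Adamts15, -0.10 to 0.74 for Timp2 and -0.056 to 0.47 for Timp4. Timp1 (-2.05 to -0.17) and Timp3 (0.02 to 1.13) kept their direction without each array. Adamts12 was at 0.023 once arrays were centred on their medians. Adamts8 was at -0.0030 as the mean of its probe sets and at -0.029 with the tenocyte marker mean taken off. The cause of these turns was not tested. With the replicate number as a block the differences were the same, 0 members were called, and Timp1 (-1.11) had an adjusted p of 0.993. Among the members' 117 values under alternatives 102 had the same direction and call and 15 turned. Adamts4, Adamts8 and Adamts15 were left out by the filter on dim probe sets.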

Other observations

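For the inhibitor and the protease of widest range, genes with the most similar pattern over the 4 arrays were sought among 12449 genes with a mean above the highest array median, by the root mean square distance between deviations from the own mean. Zbtb39 (0.28), Tmem255b (0.29) and Gfpt2 (0.32), the last an enzyme gene of hexosamine synthesis, lay nearest to Timp1. Gfpt2 was at 4.79 and 6.25 in females and at 6.80 and 5.35 in males, again lowest in female 1 and highest in male 1. Zfp36l2 (0.21), an RNA-binding protein gene, Snora62 (0.25) and Stk32b (0.29) lay nearest to Adamts5. Zfp36l2 was at 3.59 and 6.05 in females and at 3.91 and 4.65 in males. With 4 arrays and so many candidates, near matches are found for almost any pattern, and no shared function or control is read from them.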
